A study of Mus musculus with 1 sample.

Results

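The 6 genes described here, Gimap1, Gimap4, Gimap5, Gimap6, Gimap8 and Gimap9, encode GTPases of the immunity-associated protein family. They were taken by symbol from the 32285 genes of a single-cell count matrix, and each symbol matched 1 gene. The matrix holds lineage-negative, Kit-positive bone marrow cells, which are stem cells and early progenitors, from C57BL/6 mice that carried floxed Brd9 (CD45.2(+) Brd9fl/fl) and no Cre deletion, as the control of a study of BRD9. The mice had received 3 doses of 20 mg/kg polyinosinic-polycytidylic acid (pIpC), an inducer of interferon, and marrow was collected 8 weeks later. The sample's labels place the injections 4 weeks after a transplant into CD45.1(+) CD45.2(-) recipients, whereas the series text speaks of primary mice injected 4 weeks after birth, and which applies was not settled. The number of mice pooled is not given in the sources used here.

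Gimap proteins are small GTP-binding proteins best known from lymphocytes, where several of them sit on intracellular membranes and are needed for survival. Loss of Gimap5 in mice and rats depletes peripheral T cells and, in mice, also harms blood stem cells. Gimap1 is needed for mature T and B cells, Gimap4 has been tied to T cell death and cytokine secretion, Gimap6 to autophagy, and Gimap8 to lymphocyte survival. Less is known of Gimap9. The family genes lie side by side in 1 cluster.

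In the GENCODE M21 annotation of GRCm38, all 6 members were protein-coding genes on chromosome 6 within 107.0 kb. Gimap8 (ENSMUSG00000064262) came first, at chr6:48647234-48660875 on the plus strand. Gimap9 (ENSMUSG00000051124) followed at chr6:48676129-48679114, and Gimap4 (ENSMUSG00000054435) at chr6:48684549-48692060, both on the plus strand. Gimap6 (ENSMUSG00000047867), at chr6:48701582-48708225, was the only member on the minus strand. Gimap1 (ENSMUSG00000090019) at chr6:48739054-48743795 and Gimap5 (ENSMUSG00000043505) at chr6:48746197-48754210 were next to each other on the plus strand. Exons of Gimap1 and Gimap5 overlapped those of a longer same-strand gene, Gm28053, which was not among the counted genes, and the antisense transcript Gimap1os overlapped Gimap1. The sources used here do not state whether counting used the strand, so Gimap1 and Gimap1os reads may not be fully separated.

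The RefSeq promoter table (GRCm38.p6) matched all 6 members, with 7 promoters because Gimap8 had 2 start sites. The 250 bases before the start are shown for 3 members whose levels ran differently across the cells below: Gimap1 and Gimap5, which followed each other most closely, and Gimap9, which kept a level in erythroid cells. Capitals mark matches to any of 4 short patterns searched on both strands. The pattern for ETS factors was GGAAGT. The pattern for RUNX factors, which act in blood stem cells, was TGTGGT, and it can share 1 base with the ETS pattern where one follows the other. The pattern for GATA factors, among them the erythroid regulator Gata1, was AGATAA. For IRF factors, which act in the interferon response, it was 2 copies of GAAA with any 2 bases between them.
Gimap1 promoter, chr6:48738797-48739046, plus strand: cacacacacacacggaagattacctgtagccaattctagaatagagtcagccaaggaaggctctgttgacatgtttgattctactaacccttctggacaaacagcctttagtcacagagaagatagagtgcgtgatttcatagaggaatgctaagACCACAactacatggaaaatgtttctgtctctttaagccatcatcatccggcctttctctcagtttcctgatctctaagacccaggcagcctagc
Gimap5 promoter, chr6:48745947-48746196, plus strand: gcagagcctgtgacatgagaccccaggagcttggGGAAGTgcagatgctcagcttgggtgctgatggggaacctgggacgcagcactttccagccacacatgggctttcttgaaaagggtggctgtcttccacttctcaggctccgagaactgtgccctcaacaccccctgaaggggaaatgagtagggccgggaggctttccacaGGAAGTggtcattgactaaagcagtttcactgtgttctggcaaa
Gimap9 promoter, chr6:48675885-48676134, plus strand: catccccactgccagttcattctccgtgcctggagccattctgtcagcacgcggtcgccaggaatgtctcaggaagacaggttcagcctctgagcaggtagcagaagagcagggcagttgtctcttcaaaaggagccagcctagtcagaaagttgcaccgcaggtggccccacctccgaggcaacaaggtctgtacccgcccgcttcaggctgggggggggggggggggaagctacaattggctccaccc
In the Gimap1 window the only match was to the RUNX pattern, on the minus strand from base -95 to base -90 counted from the start. The Gimap5 window held the ETS pattern at both -216 and -44, and the Gimap9 window held none of the 4 patterns. Over all 7 promoters, the ETS pattern was in 2 (Gimap5 and Gimap6), against 19.7% of 32851 promoters in the table. The RUNX pattern was in 2 (Gimap1 and Gimap4), against 14% of all promoters. The GATA pattern, found in 9.99% of promoters, and the IRF pattern, found in 2.98%, were in none. A match of letters is not a binding site, and these shares do not set the members apart.

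Cells were sorted in the data by marker genes. A unique molecular identifier (UMI) marks 1 captured RNA molecule, and a gate asks for UMIs of chosen genes. The stem gate, for example, asked for at least 2 of Procr, Hlf, Mecom, Fgd5, Hoxb5 and Ctnnal1 and no UMI of Flt3 or Dntt. The erythroid gate asked for at least 3 of Klf1, Gata1, Epor, Car1, Rhag and Ermap, the neutrophil gate for 2 UMIs of Cebpe, the monocyte gate for 2 of Csf1r with Irf8, and the lymphoid-primed gate for 2 of Dntt, the polymerase of antigen receptor assembly. Of 7645 cells kept, 4519 (59.1%) passed exactly 1 of 12 gates, 804 passed several and were left out, and 2322 passed none. The gates used most below held 704 stem-gated cells, 51 Flt3-gated cells, 187 cells with Dntt (the lymphoid-primed gate, without B-lineage genes), 30 cells with Dntt and B-lineage genes, 1313 erythroid-gated, 830 neutrophil-gated and 512 monocyte-gated cells. Markers that took no part in a gate were higher inside it than in the remaining cells beyond counting error, apart from Emb in the Flt3 gate and Ighd in the B gate. Many cells lay near a limit: 37 of the 51 Flt3-gated cells had the minimum of Flt3 UMIs, and 255 of the 704 stem-gated cells had the minimum of 2 stem genes. Median depth differed between gates, from 4179 UMIs in the 34 T or innate lymphoid-gated cells to 31463 in erythroid-gated cells, with 8624.5 in stem-gated and 21656.5 in monocyte-gated cells.

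A level is the gene's UMIs summed over the cells of a gate, per 1000000 UMIs of those cells (CPM), with its exact 95% Poisson interval, and a fold is the ratio of 2 levels with its exact binomial interval. There was 1 library, so no test between mice or libraries was possible, and intervals cover counting error only. Levels are compared between cells for the same gene, not between genes, because the counts carry no correction for how well each transcript is captured. Over the cells kept, the UMIs numbered 3991 for Gimap1, 2929 for Gimap6, 2745 for Gimap9, 1101 for Gimap5, 378 for Gimap8 and 151 for Gimap4.

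Gimap transcripts were found at the stem end and the lymphoid end of this marrow fraction and were nearly absent from monocyte-gated cells. The 6 members together reached 324 CPM (interval 311 to 337) in stem-gated cells. The sum was 239 CPM (206 to 275) in Flt3-gated cells and 242 CPM (225 to 260) in Dntt-gated cells without B-lineage genes. It was highest in the 2 small lymphoid gates, with 669 CPM (597 to 749) in Dntt-gated cells with B-lineage genes and 837 CPM (727 to 960) in T or innate lymphoid-gated cells. These 2 intervals lay above that of the stem-gated cells. The paper's lineage antibodies included markers of T and B cells, so the sort was meant to remove such cells. In the other gates, the sum was 144 CPM in basophil or mast-gated cells, 128 CPM in megakaryocyte-gated cells and 122 CPM in the 22 B-gated cells. It was 24.1 CPM in erythroid-gated, 23 CPM in dendritic-gated, 19.9 CPM in neutrophil-gated and 3.14 CPM (2.2 to 4.35) in monocyte-gated cells. Stem-gated over B-gated, the fold of the sum was 2.65 (2.02 to 3.56), near the median of 2.29 over 9970 genes. In the B gate the gene Ighm alone was at 64798 CPM, and its part in the lower levels there was not tested.

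**Figure D1:**
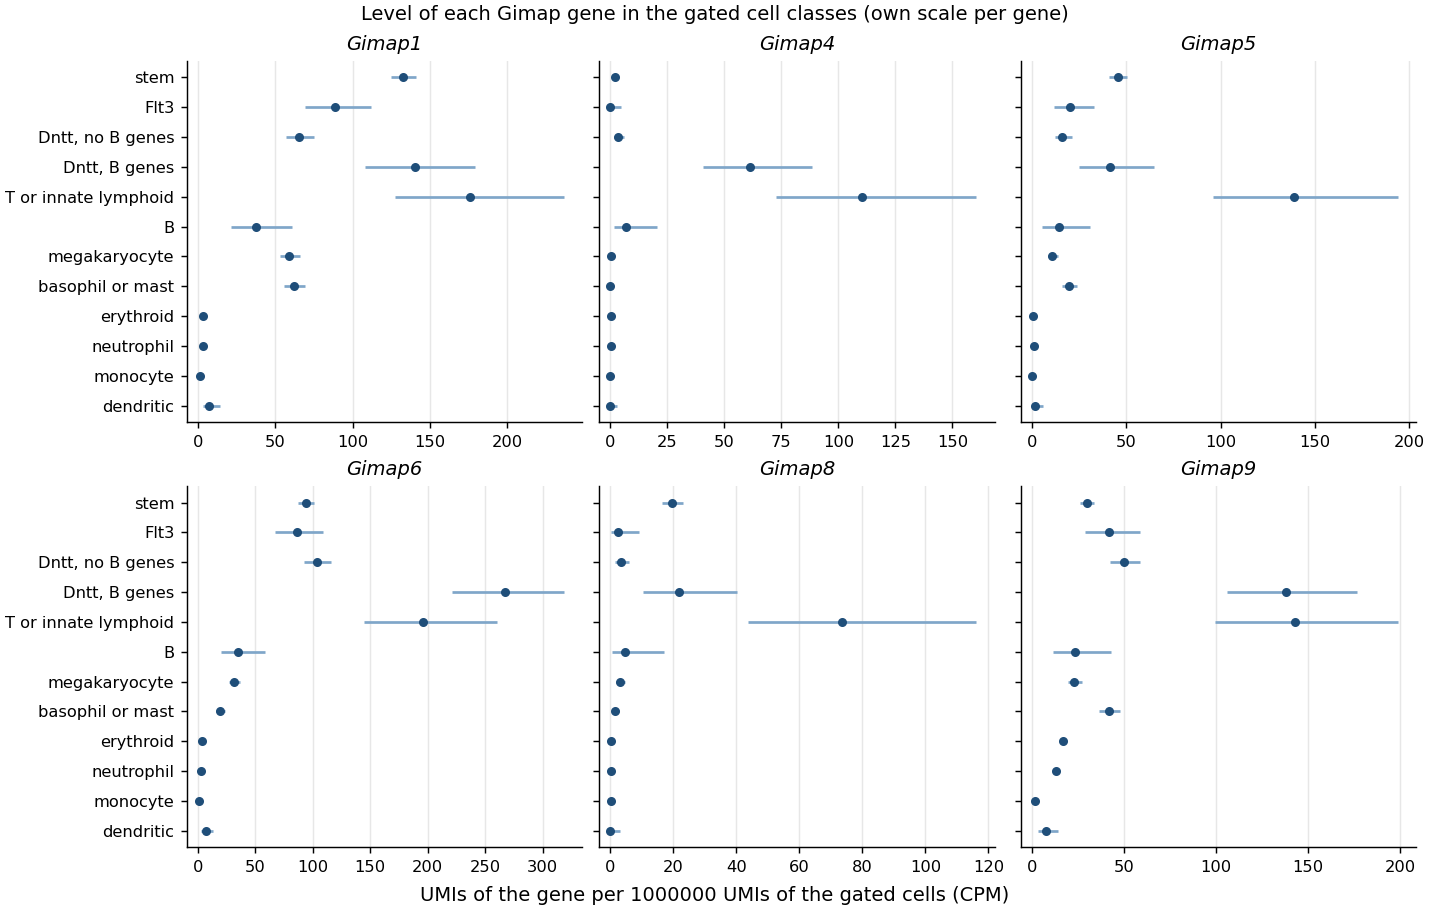
Level of each member in the 12 gated classes, in UMIs per 1000000 UMIs of the gated cells, with 1 panel and 1 scale per gene; points are levels and bars exact 95% Poisson intervals. Gimap1, Gimap5 and Gimap8 were high in stem-gated cells, Dntt-gated cells with B-lineage genes and T or innate lymphoid-gated cells, Gimap4 reached 61.3 and 110 CPM in 2 lymphoid gates and at most 7.04 CPM elsewhere, and Gimap9 was the only member above 10 CPM in erythroid-gated and neutrophil-gated cells.

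Most of the family was far lower in erythroid-gated than in stem-gated cells, with Gimap9 as the exception. Of the 5 members with at least 50 UMIs in both gates together, 4 were at least 2-fold higher in stem-gated cells, beside 31.6% of 11517 genes tested. Gimap5 and Gimap8, with 28 and 3 UMIs in the erythroid gate, passed this minimum through their stem-gated UMIs, so their place in the count is no support. Gimap1 was at 133 CPM (125 to 141) in stem-gated and 3.09 CPM (2.56 to 3.69) in erythroid-gated cells, a fold of 43.1 (35.6 to 52.4). Gimap5 was at 45.5 and 0.714 CPM, a fold of 63.8 (43.4 to 97.4). Gimap6 was at 94.1 and 3.03 CPM, a fold of 31.0 (25.5 to 38). The intervals of the levels did not meet for any of these genes.

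Gimap8 had 151 UMIs in stem-gated and 3 in erythroid-gated cells, a fold of 255 with a wide interval (85.7 to 1252). Gimap4, with 16 and 5 UMIs, was under the minimum, at 2.07 and 0.128 CPM. Gimap9 stood apart from the other members. It was at 29.7 CPM (26.0 to 33.8) in stem-gated and 17.0 CPM (15.8 to 18.4) in erythroid-gated cells, a fold of only 1.75 (1.5 to 2.03), and its interval did not reach those of the other 4 tested members. The median fold over all genes tested was 1.26.

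For Gimap1, shares of cells gave the same order. With every cell thinned to 5000 UMIs, Gimap1 was detected in 53.0% of 694 stem-gated cells (interval 49.2 to 56.8) and in 2.6% of 1306 erythroid-gated cells. Monocyte-gated cells, the class with the lowest level, had Gimap1 in 0.781% of 512 cells. Background from free RNA was not estimated. Unthinned, the 3 shares were 76.3%, 7.31% and 1.76%. Gimap9 was detected in 12% (9.64 to 14.6) of thinned stem-gated and 9.34% (7.82 to 11.1) of thinned erythroid-gated cells, with intervals that met. Among thinned monocyte-gated cells it was detected in 0.391%. Unthinned, Gimap9 was in 26.1% of stem-gated, 38% of erythroid-gated and 2.73% of monocyte-gated cells, so the erythroid share exceeded the stem share only before depth was made equal. The thinned erythroid share of Gimap9 lay above the interval of monocyte-gated cells (0.0473 to 1.4). That class was named for its lowest level, so this is no support.

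**Figure D2:**
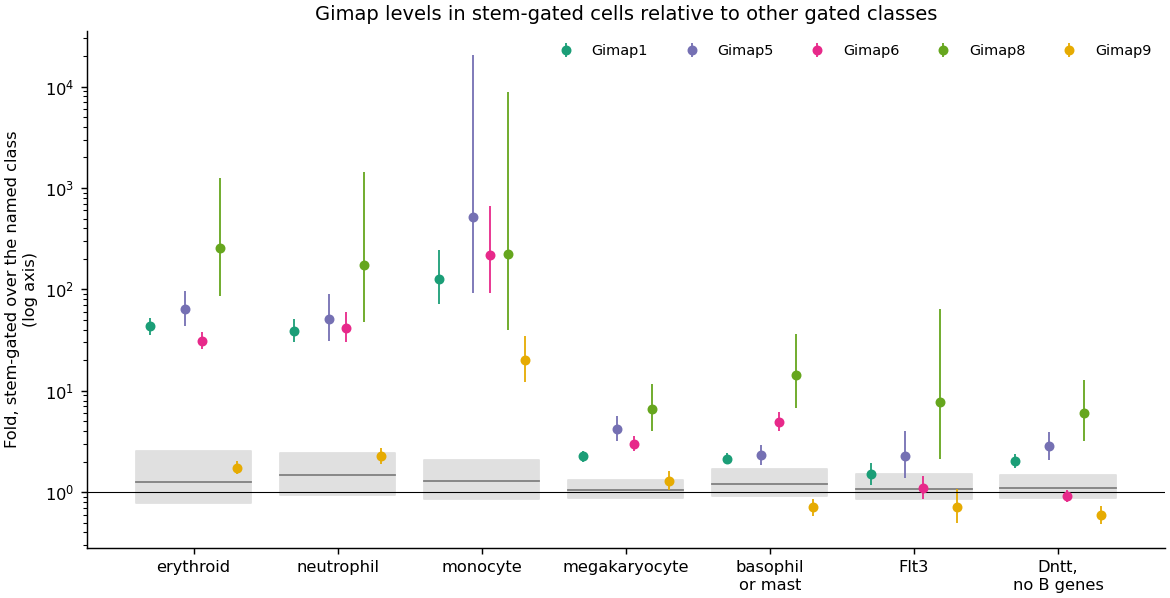
Fold of each member in stem-gated cells over 7 other gated classes, on a log axis; points are folds, bars exact 95% intervals, grey boxes the interquartile range over all genes tested and grey lines their median. Gimap4 is left out as under 50 UMIs; Gimap9 lay lowest in every class, from 0.595 over the Dntt gate to 20.1 over monocyte-gated cells.

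The myeloid gates split in the same comparison. All 5 tested members were at least 2-fold higher in stem-gated than in neutrophil-gated cells (33.2% of genes) and than in monocyte-gated cells (26.7% of genes). In the monocyte comparison all 5, and in the neutrophil comparison Gimap5, Gimap6 and Gimap8, were tested through their stem-gated UMIs, so these counts are no support. Against neutrophil-gated cells, the folds were 38.8 for Gimap1, 50.7 for Gimap5 and 42 for Gimap6, and 2.27 (1.88 to 2.73) for Gimap9. Against monocyte-gated cells, Gimap1 was 127-fold (72.3 to 246) and Gimap6 216-fold (92.1 to 667) higher. Gimap5 and Gimap8 each had 1 UMI over 512 monocyte-gated cells, and Gimap4 had none (interval 0 to 0.322 CPM). Gimap9 was 20.1-fold (12.3 to 35) higher in stem-gated than in monocyte-gated cells.

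Erythroid-gated and neutrophil-gated cells held more Gimap9 than monocyte-gated cells did. Its level was 11.5-fold (7.12 to 19.8) higher in erythroid-gated and 8.85-fold (5.41 to 15.5) higher in neutrophil-gated than in monocyte-gated cells. Over all genes, 15.2% and 4.27% were at least 2-fold higher in those 2 comparisons. Gimap9, with 17 monocyte-gated UMIs, was tested through the other gate in both, so these shares are no support. Neutrophil-gated cells held 13.1 CPM of Gimap9 and monocyte-gated cells 1.48 CPM. Gimap1 and Gimap6, with 12 and 5 monocyte-gated UMIs, were also higher than in monocyte-gated cells, at lower levels. They too were tested through the other gate, and Gimap6 was under the minimum in the neutrophil comparison. In erythroid-gated cells Gimap1 was 2.95-fold (1.63 to 5.86) and Gimap6 6.96-fold (2.9 to 21.8) higher. In neutrophil-gated cells Gimap1 was at 3.42 against 1.05 CPM, a fold of 3.27 (1.74 to 6.67).

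Basophil or mast-gated cells kept more of the family than the other myeloid gates. Gimap1 was at 62.2 CPM there, 18.2-fold (13.8 to 24.3) above neutrophil-gated cells, and Gimap5 at 19.8 CPM, 22.0-fold (12.9 to 40.0) above. Gimap9, at 42 CPM, was higher than in stem-gated cells, whose level was 0.707-fold (0.585 to 0.856) of it. Gimap6 ran the other way, with stem-gated cells 4.96-fold (4.01 to 6.2) above basophil or mast-gated cells. Of the 5 tested members, 4 were at least 2-fold higher in stem-gated cells, where 19.1% of genes were. Gimap8, with 7 basophil or mast-gated UMIs, entered this count through the stem gate. Gimap1 and Gimap5 were under 2-fold with the stricter cell filter (1.84 and 1.78).

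In megakaryocyte-gated cells the same 4 members (Gimap1, Gimap5, Gimap6 and Gimap8) were at least 2-fold lower than in stem-gated cells, where 8.88% of genes were higher in stem-gated cells by that fold. Gimap8, with 17 megakaryocyte-gated UMIs, entered this count through the stem gate. Gimap1 was under 2-fold in 3 other settings (1.47 to 1.98), and Gimap6 in 1 (1.78, with looser gates). Gimap1 was 2.25-fold (1.99 to 2.55), Gimap6 2.99-fold (2.54 to 3.55) and Gimap5 4.2-fold (3.2 to 5.6) higher in stem-gated cells, and Gimap9 1.29-fold (1.04 to 1.61). Another 429 cells passed both the stem and the megakaryocyte gates and were left out of both. Their Gimap1 level, 85.3 CPM, lay between 133 CPM in stem-gated and 59.0 CPM in megakaryocyte-gated cells. Gimap5, Gimap6 and Gimap8 lay between as well, at 22.6, 51.6 and 10.5 CPM.

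The step from stem cells towards lymphoid progenitors divided the members. Gimap1 was 0.493-fold (0.422 to 0.574), Gimap5 0.355-fold (0.258 to 0.478) and Gimap8 0.165-fold (0.0777 to 0.312) in Dntt-gated cells without B-lineage genes relative to stem-gated cells, all 3 past a 2-fold decrease that 14.1% of genes showed. Gimap8, with 10 UMIs in the Dntt gate, was tested through the stem gate. Gimap1 stood at the limit, and its stem-gated over Dntt-gated fold of 2.03 was under 2 in 5 other settings, down to 1.69 with looser gates. Gimap6 was at 104 CPM (92.6 to 116) in the Dntt gate and 94.1 CPM (87.4 to 101) in the stem gate, a fold of 1.1 whose interval (0.962 to 1.26) held 1. Gimap9 was 1.68-fold (1.36 to 2.07) higher in the Dntt gate. Gimap4 had 10 and 16 UMIs, too few to separate. The thinned shares of cells ran alike: Gimap1 was in 33.0% of 185 Dntt-gated cells against 53.0% of stem-gated cells, and Gimap9 in 20.5% against 12%.

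Flt3-gated cells, which stand for multipotent progenitors, lay between these for Gimap1, at 88.4 CPM (68.9 to 112). Gimap5 was at 20.2 CPM and Gimap8 at 2.53 CPM from 2 UMIs, and these were the 2 members at least 2-fold higher in stem-gated cells, beside 14.1% of genes. Both were tested through their stem-gated UMIs, so the count is no support. The stem-gated level was 2.25-fold (1.37 to 3.98) that of Flt3-gated cells for Gimap5, and 7.73-fold (2.1 to 64.4) for Gimap8. For Gimap5 it was under 2-fold in 5 other settings, from 1.45 with stricter gates to 1.97 with the stricter cell filter. Gimap6 (1.1-fold, 0.854 to 1.43) and Gimap9 (0.714-fold, 0.494 to 1.06) did not differ beyond counting error. Only 51 cells passed this gate, and the order of the 2 gates was not stable: the summed level in stem-gated over Flt3-gated cells was 1.36-fold (1.17 to 1.58), but 0.842-fold with stricter gates, which left 15 Flt3-gated cells, and 0.88-fold with looser gates. Between Dntt-gated and Flt3-gated cells the summed fold was 1.01 (0.862 to 1.19), and 0.615 with the stricter gates.

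Cells with UMIs of B-lineage genes beside Dntt had more of every tested member. All 4 members with enough UMIs were at least 2-fold higher than in Dntt-gated cells without B-lineage genes, where 1.95% of 7121 genes were. Gimap6 was at 267 CPM (222 to 319) against 104 CPM, a fold of 2.58 (2.07 to 3.18). Gimap9 was at 138 CPM (106 to 176) against 50.02 CPM, a fold of 2.76 (2.02 to 3.72). Gimap1 was 2.14-fold (1.59 to 2.84) and Gimap5 2.58-fold (1.43 to 4.45) higher. The interval of each fold lay above 1, though these cells numbered only 30, and the 10 with most Gimap6 held 61.5% of its UMIs.

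Gimap4 was highest in 2 of the lymphoid gates. It had 28 UMIs in 15 of the 30 Dntt-gated cells with B-lineage genes, a level of 61.3 CPM (40.7 to 88.5), against 3.23 CPM (1.55 to 5.94) from 5 of 187 cells without B-lineage genes. It had 27 UMIs in 6 of the 34 T or innate lymphoid-gated cells, at 110 CPM (72.7 to 161). In stem-gated cells it had 16 UMIs, in 16 of 704 cells, and the level of 2.07 CPM did not differ from Dntt-gated cells without B-lineage genes beyond counting error (fold 0.641, 0.274 to 1.58). No UMI was found in Flt3-gated, monocyte-gated, dendritic-gated or basophil or mast-gated cells. The upper ends of the intervals in the small Flt3 and dendritic gates, 4.66 and 3.03 CPM, lay above the stem-gated level, so a difference from it was not detectable there.

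The T or innate lymphoid-gated cells had the highest levels of Gimap4, Gimap5 and Gimap8 beyond counting error from the next gate. For Gimap4 the UMIs lay in 6 cells, with up to 8 in 1 cell. Its shares of cells ran the other way, with intervals that met. They were 6.25% of 16 thinned cells, against 33.3% of 30 in the Dntt gate with B-lineage genes. Gimap5 was at 139 CPM (96.2 to 194) against 45.5 CPM in stem-gated cells, and Gimap8 at 73.5 CPM (43.6 to 116) against 21.9 CPM in Dntt-gated cells with B-lineage genes. Of 5 tested members, 4 were at least 2-fold higher than in stem-gated cells, beside 7.08% of genes. Gimap1, at 176 CPM (127 to 237), did not differ from stem-gated cells (stem-gated level 0.756-fold, 0.557 to 1.05). These cells were shallow, and 18 of 34 had under 5000 UMIs. Keeping only cells over 5000 UMIs with a mitochondrial share under 5% left 11 of them, and the summed fold over stem-gated cells fell from 2.59 to 1.6, while Gimap6 turned to 1.83-fold higher in stem-gated cells. The 2-fold call of Gimap6 was also lost with looser gates (stem-gated level 0.616-fold) and with gates on thinned cells (0.561-fold).

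Read down the order of levels, several neighbours could not be separated. For Gimap1, the T or innate lymphoid, Dntt with B-lineage and stem gates did not differ from one to the next, nor did the Dntt gate without B-lineage genes, the basophil or mast gate, the megakaryocyte gate and the B gate. For Gimap6, the Dntt gate without B-lineage genes, the stem gate and the Flt3 gate were not separated. For Gimap9, the order from the Dntt gate without B-lineage genes through the basophil or mast, Flt3, stem and B gates to the megakaryocyte gate held no neighbours that differed, although its 2 ends did by their intervals (42.5 to 58.5 and 19.3 to 27.3 CPM). Monocyte-gated cells were last for Gimap1, Gimap5, Gimap6 and Gimap9, each below its neighbour beyond counting error.

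**Figure D3:**
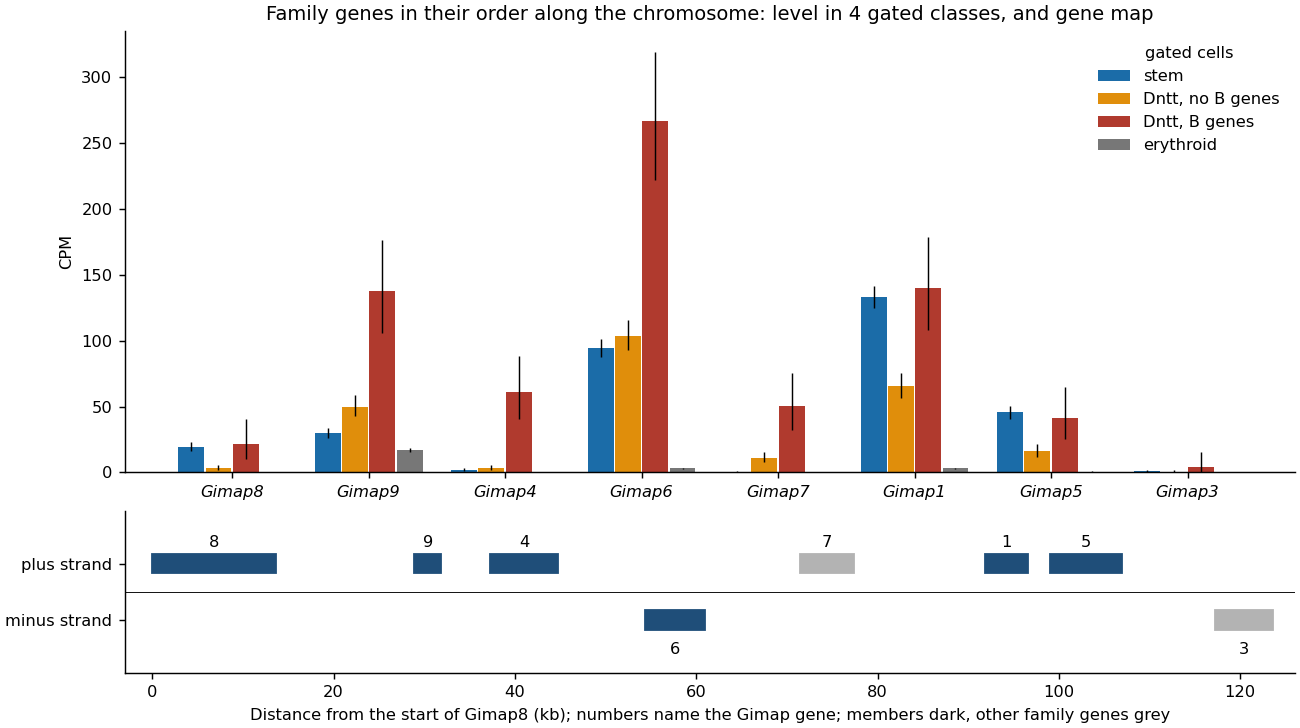
Upper panel, level of the family genes in 4 gated classes (CPM, bars from 0, lines exact 95% Poisson intervals), in their order along the chromosome; lower panel, the genes to scale by distance from the start of Gimap8 in kb, with members dark. Of the neighbours Gimap8 and Gimap9, Gimap8, with 10 UMIs in the Dntt gate, was lower and Gimap9 higher in Dntt-gated than in stem-gated cells.

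Whether position in the cluster sorts the members by pattern was not tested. Gimap8 and Gimap9 were neighbours, and stem-gated over Dntt-gated levels were 6.05-fold (3.2 to 12.9) for Gimap8 and 0.595-fold (0.483 to 0.734) for Gimap9. Gimap8, with 10 Dntt-gated UMIs, was tested through the stem gate, so its fold is no support. Gimap1 and Gimap5 were neighbours and moved in the same direction in the comparisons of stem-gated with erythroid-gated, neutrophil-gated, monocyte-gated, megakaryocyte-gated and Dntt-gated cells. This was not particular to them. Gimap8, at the other end of the cluster, moved that way in all of these comparisons, and Gimap6 in all but the Dntt comparison. The other genes of the cluster had few UMIs. Gimap7 (ENSMUSG00000043931), between Gimap6 and Gimap1, had 3 UMIs in stem-gated and 34 in Dntt-gated cells, 28.3-fold higher in the latter (8.9 to 144), and reached 50.3 CPM (31.9 to 75.5) with B-lineage genes. Gimap3 (ENSMUSG00000039264), at the far end, was at 127 CPM (86.0 to 180) in T or innate lymphoid-gated cells and at most 4.38 CPM in the other gates. The antisense Gimap1os had 46 UMIs in stem-gated cells and none in 1313 erythroid-gated cells, so it was at least 77.8-fold higher in the former against a floor of 3 UMIs over the erythroid gate.

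Within the stem gate, Gimap1, Gimap5, Gimap6 and Gimap8 were higher in cells with more stem genes detected. Gimap9 was not beyond counting error, and Gimap4, with 6 and 5 UMIs at the ends, had too few to tell. The share of all genes that rose across this split is not given, so it does not set the members apart. From 255 cells with 2 stem genes to 201 cells with 4 or more, Gimap1 went from 100 CPM (89.4 to 112) to 165 CPM (148 to 183). Gimap6 went from 63.8 to 143 CPM, a fold of 2.25 (1.87 to 2.7), and Gimap8 from 12.5 to 27.2 CPM, a fold of 2.18 (1.43 to 3.35). Gimap5 went from 33.5 to 55.4 CPM, with a fold of 1.66 (1.26 to 2.18). Gimap9 was at 29.7 and 31.6 CPM, a fold of 1.06 (0.764 to 1.47). Median depth was 9358 UMIs in the first of these sets of cells and 8430 in the last, and the part of depth was not tested.

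Vwf, a gene of platelet-biased stem cells, divided the stem gate into 314 cells with and 390 without a UMI. Gimap6 was 1.34-fold (1.16 to 1.56) higher in cells with Vwf, at 109 against 80.9 CPM. For Gimap1 the fold was 1.11 (0.977 to 1.25), for Gimap5 1.09 (0.877 to 1.35), for Gimap8 1.36 (0.977 to 1.91) and for Gimap9 0.851 (0.649 to 1.11). Each of these 4 intervals held 1.

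**Figure D4:**
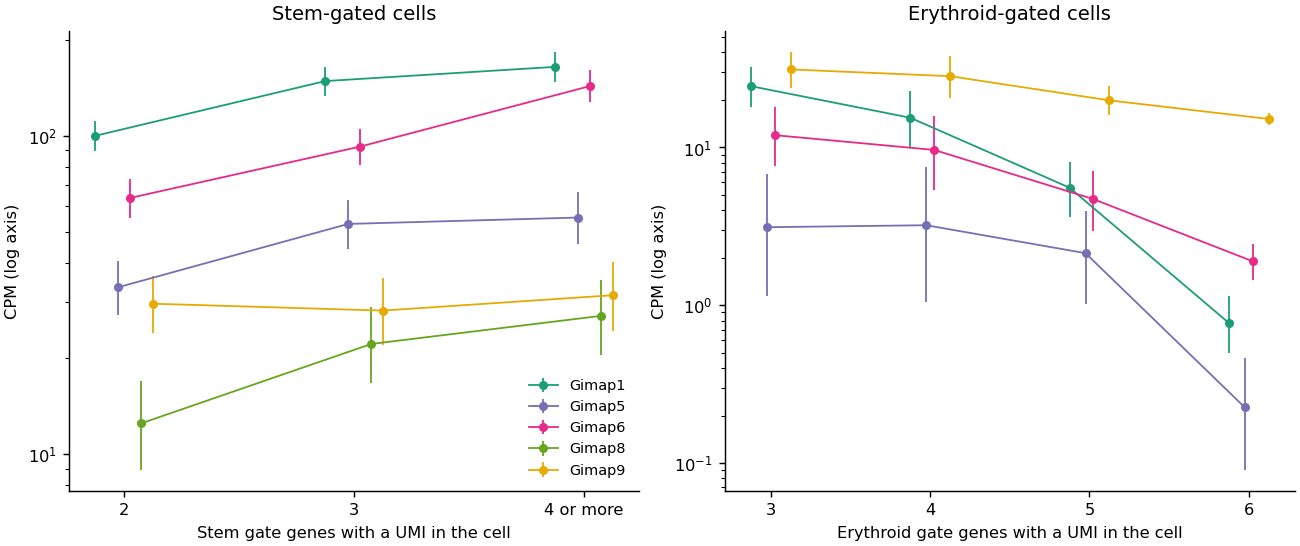
Levels (CPM, log axes) of members in stem-gated cells by the number of stem gate genes detected and in erythroid-gated cells by the number of erythroid gate genes detected; points are levels, bars exact 95% Poisson intervals. Gimap1 fell from 24.5 to 0.772 CPM across the erythroid-gated cells, whereas Gimap9 went from 31.2 to 15.2 CPM; Gimap4, and Gimap8 on the right, are left out for few UMIs.

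Within the erythroid gate, the members differed in how far they fell. In 141 cells with 3 of the 6 erythroid gate genes, Gimap1 was at 24.5 CPM (18 to 32.5), in 96 cells with 4 at 15.4 CPM, in 186 cells with 5 at 5.56 CPM, and in 890 cells with all 6 at 0.772 CPM (0.495 to 1.15). The first was 31.7-fold (19 to 54.2) the last. Gimap6 went from 12 to 1.9 CPM, a fold of 6.31 (3.72 to 10.4). Gimap9 went from 31.2 CPM (23.8 to 40.2) to 15.2 CPM (13.8 to 16.6), a fold of 2.06 (1.55 to 2.7). Cells with more erythroid genes were also deeper, with a median of 35234 UMIs for 6 genes and 11432 for 3, and the part of depth in this order was not tested. In the cells with all 6 erythroid genes, Gimap9 made up 471 of the 567 Gimap UMIs.

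Within the Dntt gate without B-lineage genes, members were higher in cells with more Dntt. The sum went from 139 CPM (115 to 166) in 47 cells with 2 to 3 Dntt UMIs to 190 CPM in 44 cells with 4 to 9 and 325 CPM (297 to 355) in 96 cells with 10 or more. The fold between the ends was 2.31 (1.7 to 3.18) for Gimap6, 2.43 (1.53 to 4.01) for Gimap9 and 2.09 (1.41 to 3.17) for Gimap1. For Gimap5, with 9 and 32 UMIs, the fold of 2.01 had an interval that held 1 (0.936 to 4.78). All 10 UMIs of Gimap4 and all 10 of Gimap8 in this gate came from the 96 cells with most Dntt, which had the lower median depth (13828.5 against 16009 UMIs).

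**Figure D5:**
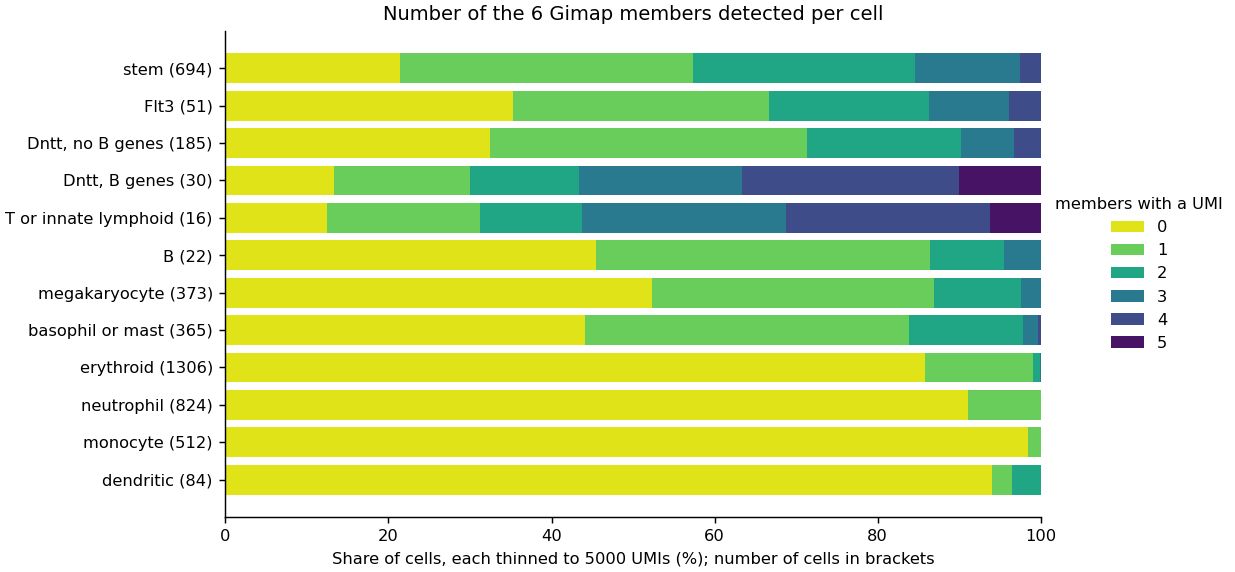
Share of cells in which 0 to 5 of the 6 members had a UMI, in each gated class, with every cell thinned to 5000 UMIs and the number of cells in brackets. At least 1 member was found in all but 21.5% of stem-gated cells, and none in 98.4% of monocyte-gated cells.

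Most stem-gated cells held at least 1 member even at 5000 UMIs. None was found in 21.5% of them (18.5 to 24.7), 1 in 35.9%, 2 in 27.2%, 3 in 12.8% and 4 in 2.59%. None was found in 85.8% of erythroid-gated, 91.1% of neutrophil-gated and 98.4% of monocyte-gated cells. Among 30 Dntt-gated cells with B-lineage genes, 8 held 4 members and 3 held 5. The stem-gated UMIs were spread over many cells: the 10 cells with most Gimap1 held 5.36% of its UMIs, and no stem-gated cell had more than 7.

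Gimap5 was found more often in stem-gated cells that held Gimap1. In thinned cells, Gimap5 was detected in 32.1% (27.3 to 37.1) of the 368 cells with Gimap1 and in 17.5% (13.5 to 22.1) of the 326 without. The intervals did not meet. For Gimap9 the 2 shares were 12% and 12%, and for Gimap6 they were 40.2% and 34.7%, with intervals that met. Gimap8 was in 12.5% of cells with and 7.36% of cells without Gimap1, again with intervals that met.

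Across the 7 gates of at least 100 cells, the pattern of Gimap1 was most like that of Gimap5 among the members (Pearson r = 0.989 of log2(CPM + 1), 7 points from 1 library). The lowest value was that of Gimap4 and Gimap9 (r = 0.525), but Gimap4 had no more than 16 UMIs in any of these gates and none in 2 of them, so its values rest on levels near the floor. Outside the family, the genes of most similar pattern among 9056 ranked were Ppp1r13b (r = 0.994), Fam199x and Dennd1b for Gimap1, and Alg2 (r = 0.987), Ppp1r13b and Osbpl8 for Gimap5. For Gimap6 they were Atf2 (r = 0.992), Mex3a and Aff3, for Gimap8 Impact (r = 0.994), Gm13212 and Tbc1d20, for Gimap9 Mc5r (r = 0.981), Kdm5b and Rreb1, and, with the same limit, for Gimap4 Tbc1d17 (r = 0.942), Nr2c1 and Pde7a. High values arise readily over 7 points when so many genes are ranked, and these are descriptions.

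Gimap proteins have been linked to the Bcl2 family of survival and death proteins and to autophagy, so 8 such genes were read beside them. Of these 8, 3 were at least 2-fold higher in stem-gated than in erythroid-gated cells, close to the 31.6% over all genes. None was at least 2-fold lower (9.73% of genes), and the median fold was 1.38 against 1.26 over all genes. Bax (0.565-fold, 0.523 to 0.61) and Bcl2l11 (0.519-fold, 0.421 to 0.634), which promote cell death, were lower in stem-gated cells beyond counting error. Bad, which also promotes it, did not differ beyond counting error (1.115-fold, 0.987 to 1.26). Bcl2, which blocks cell death, was at 133 CPM in stem-gated and 12.2 CPM in erythroid-gated cells, a fold of 10.9 (9.81 to 12.2). Mcl1 (2.33-fold) and Bcl2l1 (3-fold), its survival relatives, were the others. From stem-gated to Dntt-gated cells, where Gimap1 and Gimap5 were lower, the 8 genes went both ways. Beyond counting error, 2 were higher, Bcl2 (2.09-fold, 1.91 to 2.29) and Bcl2l11 (3.31-fold, 2.56 to 4.3). Another 3 were lower: Bcl2l1 (0.537-fold, 0.326 to 0.848), Mcl1 (0.755-fold, 0.686 to 0.83) and Gabarapl2 (0.859-fold, 0.742 to 0.992). The median fold of the 8 was 0.91, against 0.917 over all genes. Gabarapl2, an autophagy gene whose product binds Gimap6, was 1.31-fold (1.21 to 1.42) higher in stem-gated than in erythroid-gated cells, and Gsk3b 1.45-fold (1.34 to 1.58).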

How the data were processed

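The authors aligned and counted the reads with Cell Ranger 6.0.2 on mm10 and deposited raw UMI counts per gene and barcode. The labels describe a bulk RNA kit, but the header and the methods speak of droplet single-cell counting by 10x Chromium. The study's filter (UMIs between 1000 and 50000, genes between 1000 and 6500, under 7% mitochondrial) kept 7645 of 8817 barcodes, with 1592 to 49991 UMIs each. Scrublet in scanpy 1.11.5 (expected rate 6%) called 268 doublets (3.51%), which were kept. Gates, levels and exact intervals (scipy 1.17.1) were computed from the counts; genes were compared at 2-fold where both gates together held 50 UMIs. The interval code was tested on simulated data. Shares used cells thinned to 5000 UMIs. The genes named were the members, the other family genes, 8 pathway genes and, for each member, the 3 genes of most similar pattern. The members, gates and lists were chosen with earlier results of these data known. The deleted arm was not used here.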

Additional observations from a re-analysis of the deposited data

Results flagged for a closer look

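The 1172 barcodes that the cell filter removed, which entered no comparison except the alternative without a cell filter, still held members above the floor of 3 UMIs (0.192 CPM). Gimap1 was at 14.4 CPM, Gimap5 at 4.04 CPM, Gimap6 at 8.14 CPM, Gimap8 at 1.28 CPM and Gimap9 at 15.2 CPM. Each was lower than over the cells kept, where Gimap1 was at 26.3 CPM and Gimap9 at 18.1 CPM. Of the removed barcodes, 27 passed the stem gate, with 155 CPM over the 6 members (125 to 190), and 322 passed the erythroid gate, with 18.6 CPM (15.7 to 21.8).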

How the results depend on the processing

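No paired analysis was possible because 1 library was used. The summed stem-gated over erythroid-gated fold of 13.5 moved to 10.8 with the stricter cell filter, 15.6 with stricter and 10.6 with looser gates, 16.8 with gates set on thinned cells and 12.3 as a mean of per-cell levels. Over neutrophil-gated cells, 16.3 moved to 13.9, 18.4 and 19.1 with the stricter filter, thinned gates and per-cell means, and over monocyte-gated cells 103 moved to 63.5 with thinned gates. Over Flt3-gated cells, 1.36 turned to 0.842 and 0.88 with stricter and looser gates and was 1.88 with thinned gates. Dntt-gated over stem-gated, 0.747, was 0.849 with the stricter filter. Dntt-gated over Flt3-gated, 1.01, was 0.615, 0.706 and 1.45 with stricter, looser and thinned gates. T or innate lymphoid-gated over stem-gated, 2.59, was 1.6, 3.01, 1.7 and 3.15 with the stricter filter, stricter gates, looser gates and per-cell means. Counting cells of both the stem and megakaryocyte gates as stem-gated, chosen after seeing the data, gave 11.1, 13.4, 1.12, 0.906 and 3.14 for the erythroid, neutrophil, Flt3, Dntt and T or innate lymphoid comparisons. The 2 members 2-fold higher than in Flt3-gated cells became 1 under 6 settings (stricter filter, stricter or looser gates, per-cell means, the joined gates, 3-fold), and the 3 higher than in Dntt-gated cells became 1 at 3-fold. Of 458 member folds, 401 stayed within the counting interval, 54 left it and 3 turned: Gimap1 stem-gated over Flt3-gated was 0.916 and 0.921 with stricter and looser gates, and Gimap6 stem-gated over T or innate lymphoid-gated was 1.83 with the stricter filter. Looser gates put 4061 cells in several gates. The cause of the other changes was not tested. Of 54 alternative shares of cells, 37 left the interval: 13 of 18 at 3000 UMIs, 10 of 18 at 8000 and 14 of 18 without thinning. Gimap4 and Gimap8 had the fewest UMIs (151 and 378).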

Other observations

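The cell with the most Gimap4 lay outside the comparisons, because it passed both the T or innate lymphoid and the erythroid gates. It held 21 UMIs of Gimap4, 10 of Gimap5, 10 of Gimap6 and 3 of Gimap8 among 19548 UMIs, with 4 of Trbc2 and 5 of Il7r, and no Gimap1. It was not called a doublet. It alone held 21 of the 55 Gimap4 UMIs in cells of several gates. The cell with the most Gimap6, 15 of 5889 UMIs, passed no gate, although it held 23 UMIs of Dntt.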
